A study of Rattus norvegicus with 325 samples.

Results

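The step from 24 to 27 months of age in the rat soleus was described from 12 libraries of each age, 24 of the 325 libraries of the series, chosen by the muscle and age in their titles. The animals were male Sprague Dawley rats, an outbred stock, and each library is bulk RNA sequencing of whole muscle, with no treatment or genotype named in the labels. The wider series holds 84 soleus libraries (12 at each of 7 ages from 6 to 27 months) and libraries of the diaphragm, gastrocnemius and tibialis anterior at the same ages. All tissues of one age were collected on the same day, so age and collection day cannot be told apart. The labels do not say which animal gave which library.

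The soleus is a postural muscle of the calf made mostly of slow, oxidative fibers, which carry the slow myosin Myh7 and many mitochondria. A muscle fiber in contact with its nerve keeps acetylcholine receptors at the junction only. After loss of nerve contact the nuclei along the fiber are known to switch on receptor subunits, the receptor-organizing kinase MuSK and embryonic myosins, partly through the repressor Hdac4 and the factor myogenin. In old age motor units are lost and fibers are denervated and reinnervated, often with a change of fiber type.

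Soleus libraries held 20.829 M to 31.816 M gene counts at 24 months and 21.353 M to 37.648 M at 27 months (M, 1e6 counts). The 10 slow-fiber genes together made up 46330 to 88530 CPM (counts per 1e6 library counts) at 24 months and 30440 to 94670 at 27 months, so the slow markers of the labelled muscle were present at both ages. Several libraries at 27 months stood apart from those of 24 months. The 18S ribosomal RNA gene Rn18s, a target of the ribosomal RNA removal, had 0 counts in replicates 0, 8 and 9, 104 in replicate 3 and 841 to 12294 in the other libraries at 27 months, against 3543 to 30940 at 24 months. Albumin, a liver transcript, reached 1988 CPM in replicate 4 and 434 in replicate 7 at 27 months, and was between 0.1128 and 6.444 CPM in the other 22 libraries. Neither trait was particular to 27 months in the soleus. Mean Rn18s in log2 CPM was 4.42 ± 6.175 (SD) at 18 months and 3.46 ± 6.01 at 27. Mean albumin in log2 CPM was 5.94 at 6 months, 3.71 at 12, 6.805 at 18 and 4.305 at 21. It was -2.31 at 9 months, -0.91 at 24 and 2.115 at 27. The part of Rn18s or albumin in the results was not tested. Counts of called genes are given below without replicates 0, 8 and 9 and without replicates 4 and 7 of 27 months.

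Between 24 and 27 months, 550 of 12175 tested genes (4.52%) were called changed, with a Benjamini-Hochberg adjusted p below 0.05 in limma-voom and more than 1.5-fold. Of these, 361 were higher (2.97%) and 189 lower (1.55%) at 27 months. Changes past 2-fold were reached by 169 genes upward and 40 downward. At any fold, 4147 genes (34.1%) had an adjusted p below 0.05, 2001 higher (16.4%) and 2146 lower (17.6%). The step before it, from 21 to 24 months, gave 65 called genes (0.534%), though edgeR called 225 and DESeq2 236 there, and it shares the 24-month libraries. The comparison of 21 with 6 months, which shares no library with the last step, gave 318 (2.61%), 172 higher (1.41%) and 146 lower (1.2%).

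Scaling mattered for the split by direction. With total counts in place of TMM factors, 545 genes were called higher and 110 lower, so the higher share was 83.2% in place of 65.6%, and the median change of all genes was 0.12 in place of 0.02 on the log2 scale. Without the 27-month libraries of replicates 0, 8 and 9, 388 genes were called higher and 189 lower. Without replicates 4 and 7 the counts were 350 and 151. Only 14 of the tested genes (0.115%) had every library of one age above every library of the other. Of these, Cyyr1, Dgkb and Sh3bgrl were called, all 3 lower at 27 months, and they are named here after their values were seen.

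**Figure D1:**
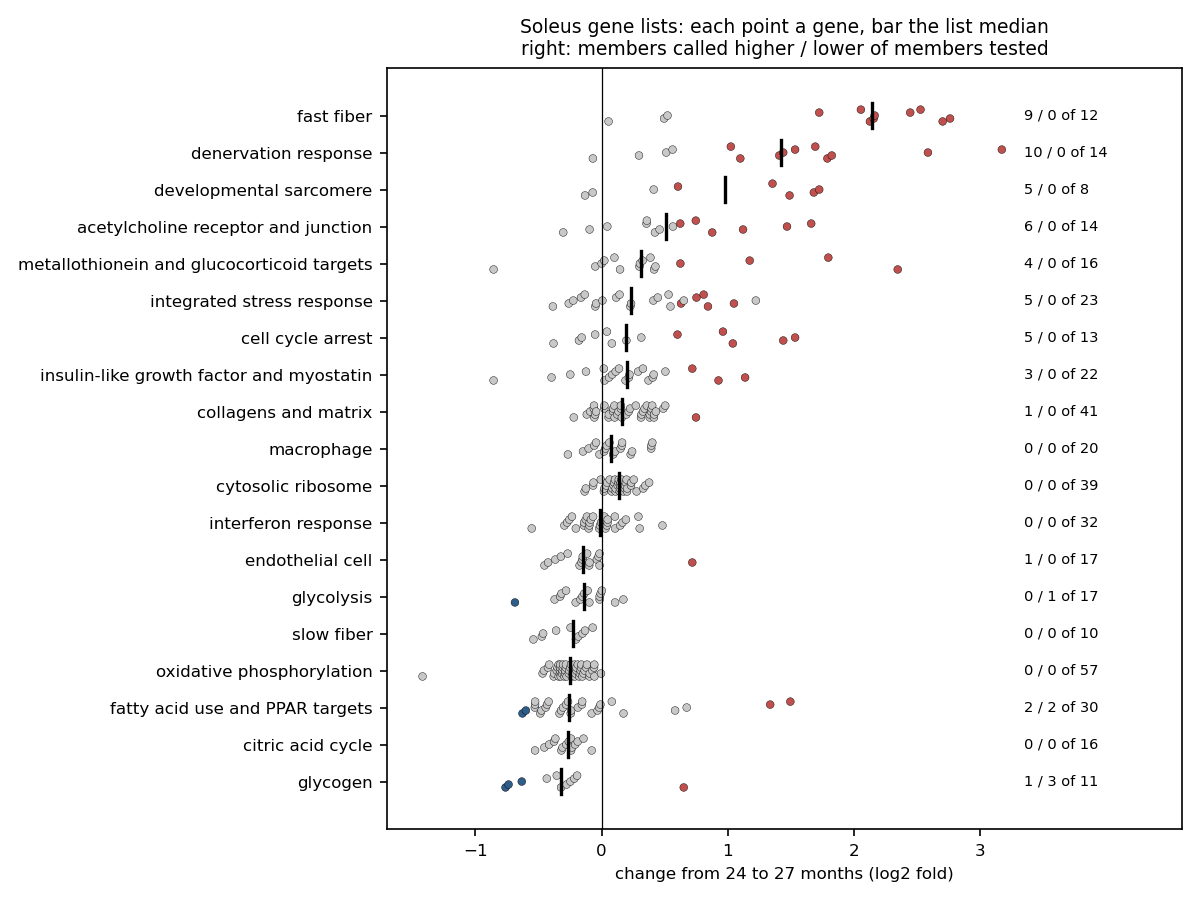
Change from 24 to 27 months (log2 fold, horizontal axis) of each tested gene in 19 gene lists of the soleus. Red points were called higher, blue lower and gray neither, and the black bar is the list median. The fast fiber, denervation response and developmental sarcomere lists lie to the right, with medians of 2.14, 1.42 and 0.98, and the oxidative phosphorylation list lies to the left, with a median of -0.25.

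Genes of the acetylcholine receptor and the neuromuscular junction were higher at 27 months. Of 14 tested, 6 were called higher and none lower, against 2.97% and 1.55% of all genes tested. At any fold 11 were higher, against 16.4% of all genes tested. The list median change was 0.51 on the log2 scale against 0.02 over all genes. The embryonic gamma subunit Chrng ranged from 2.11 to 5.65 (median 3.06) at 24 months and from 3.28 to 6.29 (median 5.11) at 27 months, in log2 CPM. Its change was 1.66 ± 0.23, adjusted p = 2.34e-08 (SE). The ages overlapped: replicate 9 was the lowest library at 27 months, and 3 of the 27-month libraries lay above all those of 24 months. The alpha subunit Chrna1, which binds acetylcholine, ranged from 5.12 to 8.93 (median 6.79) at 24 months and from 6.14 to 9.502 (median 8.76) at 27 months, a change of 1.47 ± 0.26, adjusted p = 5.94e-06. The kinase Musk ranged from 1.84 to 3.87 (median 2.49) at 24 months and from 2.87 to 4.498 (median 3.81) at 27 months, a change of 1.12 ± 0.16, adjusted p = 4.75e-08. Both showed the same overlap, with 4 and 5 libraries of 27 months above the highest of 24 months.

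The adult epsilon subunit Chrne changed by 0.62 ± 0.09, adjusted p = 1.47e-07, less in size than Chrna1 and Chrng. Lrp4, the agrin receptor that acts with MuSK, had one of the 3 lowest p-values among rises (0.75 ± 0.09, adjusted p = 1.12e-09), and 10 of 12 libraries of 27 months exceeded every library of 24 months. The neural cell adhesion molecule Ncam1 changed by 0.88 ± 0.13, adjusted p = 2.7e-07. The delta and beta subunits stayed under 1.5-fold with low p-values, Chrnd at 0.56 ± 0.11, adjusted p = 1.66e-05 and Chrnb1 at 0.46 ± 0.08, adjusted p = 1.37e-06. Chrnd passed 1.5-fold with total-count scaling (0.663), with quality weights (0.64) and without any one of replicates 3, 5, 6, 7 and 11 of 24 months or 0 and 10 of 27 months. The receptor-clustering protein gene Rapsn changed by 0.42 ± 0.08. The nerve-derived organizer Agrn (-0.095 ± 0.04, adjusted p = 0.0898) and the collagen tail of acetylcholinesterase Colq (-0.304 ± 0.14, adjusted p = 0.0899) did not pass the test.

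The proximal promoters of the subunit genes and Musk are shown because these genes moved in one direction and because E-boxes, the CANNTG sites bound by myogenic factors such as myogenin and MyoD, are classical elements of receptor genes. Each line gives 140 bases before the RefSeq transcription start and 10 after it (build GRCr8, 5′ to 3′ on the gene's strand), with every CANNTG in capitals. The places are chr3:78877344-78877493 (minus strand) for Chrna1, chr10:55015098-55015247 (minus strand) for Chrnb1, chr9:95310176-95310325 (plus strand) for Chrnd, chr9:95325844-95325993 (plus strand) for Chrng, chr10:55834145-55834294 (minus strand) for Chrne and chr5:77853596-77853745 (plus strand) for Musk.
Chrna1: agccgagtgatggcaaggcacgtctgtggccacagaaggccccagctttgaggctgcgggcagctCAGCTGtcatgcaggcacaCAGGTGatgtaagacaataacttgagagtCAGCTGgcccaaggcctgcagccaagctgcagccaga
Chrnb1: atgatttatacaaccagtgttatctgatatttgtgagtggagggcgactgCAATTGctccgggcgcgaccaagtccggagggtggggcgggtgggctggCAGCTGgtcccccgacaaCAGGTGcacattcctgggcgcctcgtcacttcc
Chrnd: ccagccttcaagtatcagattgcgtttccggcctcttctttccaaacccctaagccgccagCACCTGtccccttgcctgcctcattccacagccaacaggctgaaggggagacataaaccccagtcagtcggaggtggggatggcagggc
Chrng: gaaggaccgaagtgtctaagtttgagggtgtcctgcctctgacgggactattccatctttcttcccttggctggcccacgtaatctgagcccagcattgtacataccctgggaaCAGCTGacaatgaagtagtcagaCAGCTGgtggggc
Chrne: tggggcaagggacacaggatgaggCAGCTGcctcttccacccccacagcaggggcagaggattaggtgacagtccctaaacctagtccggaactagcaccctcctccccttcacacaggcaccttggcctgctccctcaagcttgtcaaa
Musk: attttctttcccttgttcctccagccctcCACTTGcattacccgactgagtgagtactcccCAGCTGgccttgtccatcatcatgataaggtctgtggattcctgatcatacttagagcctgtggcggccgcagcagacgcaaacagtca
The form CAGCTG occurred 2 times in the Chrna1 and Chrng windows, 1 time in those of Chrnb1, Chrne and Musk, and not in that of Chrnd, whose single E-box has other central bases. CAGCTG and CANNTG read the same on both strands, and every CAGCTG is also a CANNTG. Over 27457 promoter windows of this length in the table, 7.85% held CAGCTG and 46.4% held any CANNTG. Of 9231 tested genes matched by symbol, 8.62% held CAGCTG, as did 13.2% of 281 genes called higher and 11.9% of 135 called lower. A match to these letters is a description and not a binding site.

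Most genes of the denervation response were higher at 27 months. In this list 10 of 14 tested genes were called higher and none lower, against 2.97% and 1.55% of all genes tested. The median change was 1.42. Runx1, a transcription factor, ranged from 4.396 to 7.17 (median 5.42) at 24 months and from 4.77 to 7.93 (median 7.32) at 27 months, a change of 1.41 ± 0.23, adjusted p = 7.99e-07. The deacetylase Hdac4 ranged from 5.38 to 7.85 (median 6.19) at 24 months and from 6.12 to 7.97 (median 7.58) at 27 months, a change of 1.02 ± 0.18, adjusted p = 7.3e-06. In both genes replicate 9 was the lowest library of 27 months and lay among those of 24 months.

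The myogenic factor Myod1 changed by 1.79 ± 0.26, adjusted p = 6.55e-08, and the growth-arrest gene Gadd45a by 1.44 ± 0.22, adjusted p = 1.93e-07. Myogenin (Myog) changed by 0.56 ± 0.105, adjusted p = 1.35e-05, just under 1.5-fold, and passed it with total-count scaling (0.657), with quality weights (0.689) and without any one of replicates 6, 7 and 11 of 24 months or 1 and 9 of 27 months. Ankrd1, a stretch-responsive repeat protein of the sarcomere, ranged from 4.02 to 7.67 (median 5.69) at 24 months and from 4.37 to 8.31 (median 7.71) at 27 months, a change of 1.82 ± 0.34, adjusted p = 1.2e-05. Sarcolipin (Sln), which lowers the efficiency of the calcium pump, changed by 1.099 ± 0.16, adjusted p = 1.65e-07. The keratin Krt18 had the list's largest change (3.17 ± 0.55, adjusted p = 4.05e-06), at low levels (median -1.15 against 1.17 log2 CPM), and DESeq2 put its adjusted p at 0.0862. Ampd3 did not pass the test (-0.07 ± 0.09, adjusted p = 0.567).

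**Figure D2:**
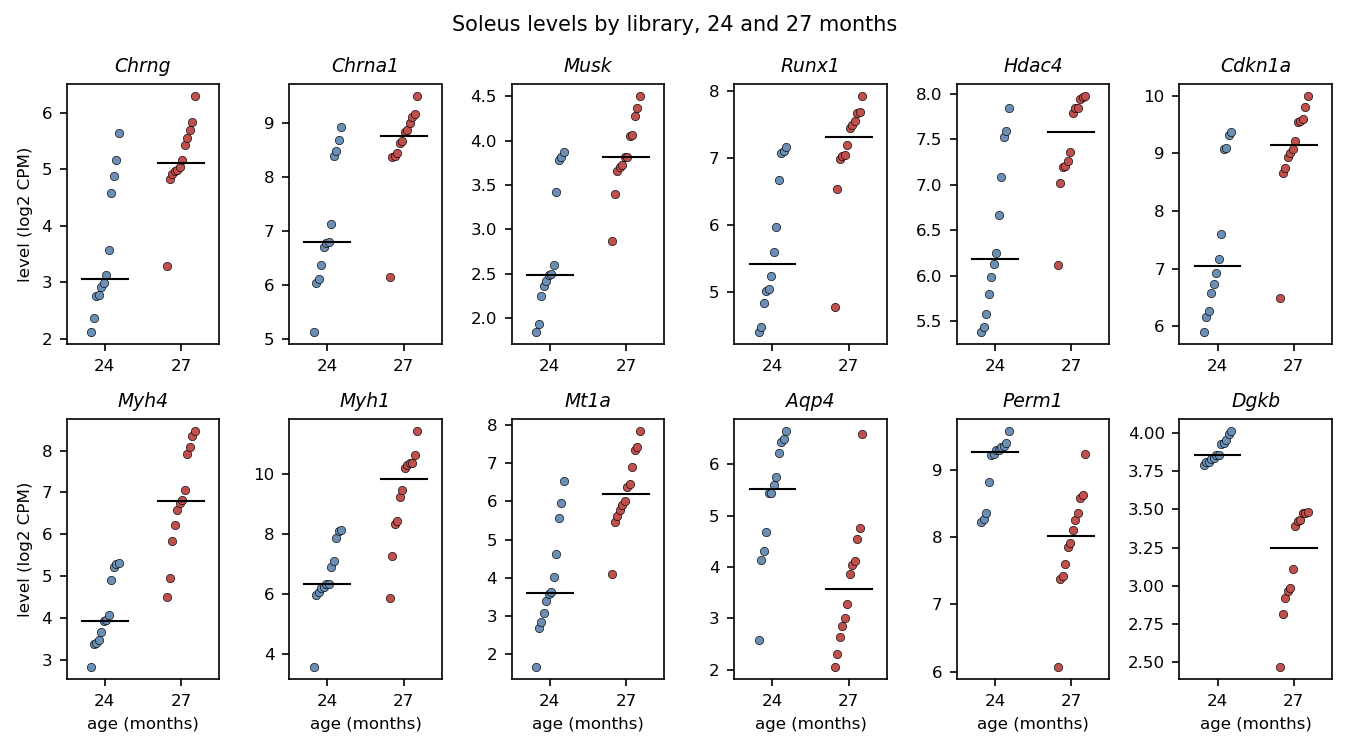
Levels (log2 CPM, vertical axes) of 12 genes in the 12 soleus libraries at 24 months (blue) and 27 months (red), with black lines at the medians. In Chrng, Chrna1, Musk and Cdkn1a a few 24-month libraries sit as high as most of 27 months and replicate 9 at 27 months sits low, while in Dgkb all 12 libraries at 27 months lie below all 12 at 24 months.

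Sarcomere genes of the embryonic and newborn muscle rose as well. Of 8 tested, 5 were called higher and none lower, against 2.97% and 1.55% of all genes tested. Embryonic myosin Myh3 ranged from 7.19 to 11.85 (median 8.99) at 24 months and from 8.63 to 11.71 (median 11.01) at 27 months, a change of 1.68 ± 0.29, adjusted p = 3.43e-06. Perinatal myosin Myh8 ranged from 1.21 to 5.11 (median 2.15) at 24 months and from 2.56 to 5.48 (median 3.98) at 27 months, a change of 1.73 ± 0.37, adjusted p = 0.00014. No library of 27 months exceeded the highest of 24 months in Myh3, and 2 did in Myh8. The embryonic light chain Myl4 changed by 1.49 ± 0.18, adjusted p = 2.39e-09, cardiac troponin T Tnnt2 by 1.35 ± 0.21, adjusted p = 4.45e-07 and cardiac actin Actc1 by 0.61 ± 0.22, adjusted p = 0.0226. Tnni1 and Tnnc1, which slow fibers of adults also use, changed by -0.13 ± 0.06 and -0.07 ± 0.097 and did not pass the test.

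The fast myosins Myh1 and Myh4 showed the largest called rises among genes with a mean log2 CPM above 0. Of 12 fast-fiber genes tested, 9 were called higher and none lower, against 2.97% and 1.55% of all genes tested. The list median change was 2.14. The fast glycolytic myosin Myh4 ranged from 2.82 to 5.32 (median 3.94) at 24 months and from 4.51 to 8.47 (median 6.79) at 27 months, a change of 2.703 ± 0.42, adjusted p = 4.04e-07. The fast myosin Myh1 ranged from 3.57 to 8.14 (median 6.34) at 24 months and from 5.87 to 11.44 (median 9.84) at 27 months, a change of 2.76 ± 0.63, adjusted p = 0.000313. For each, 10 of 12 libraries of 27 months were above every library of 24 months. The calcium buffer parvalbumin (Pvalb) changed by 2.45 ± 0.47, adjusted p = 2.3e-05, the Z-disc protein Actn3 by 2.16 ± 0.44, adjusted p = 5.43e-05 and fast troponin I (Tnni2) by 2.53 ± 0.71, adjusted p = 0.0033.

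The fast oxidative myosin Myh2 ranged from 5.27 to 8.598 (median 7.08) at 24 months and from 5.72 to 11.44 (median 9.29) at 27 months, a change of 2.16 ± 0.86, adjusted p = 0.0424. Its adjusted p rose above 0.05 without replicates 4 and 7 of 27 months together (0.127) and when 1 library was left out, for 12 of the 24 libraries (replicates 0, 1, 4, 8, 9 and 10 of 24 months and 0, 3, 4, 6, 7 and 8 of 27 months, adjusted p = 0.054 to 0.0774). Fast light chain Mylpf (1.72 ± 0.36), fast troponin T Tnnt3 (2.05 ± 0.601) and fast troponin C Tnnc2 (2.13 ± 0.48) were called higher. The fast calcium pump Atp2a1 (0.495 ± 0.21, adjusted p = 0.0607) and Casq1 (0.06 ± 0.06, adjusted p = 0.511) were not. The myosin genes are close paralogs, and reads shared between them could be split by the authors' counting.

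Slow-fiber genes were not called, yet all 10 tested lay below 0, with a median change of -0.23. At any fold 6 were lower, against 17.6% of all genes tested. Myh7, the slow myosin, ranged from 14.95 to 15.84 (median 15.59) at 24 months and from 14.29 to 15.92 (median 15.08) at 27 months, a change of -0.36 ± 0.08, adjusted p = 0.000442. The calcium pump of slow fibers Atp2a2 changed by -0.54 ± 0.11, adjusted p = 5.7e-05 and slow tropomyosin Tpm3 by -0.47 ± 0.11, adjusted p = 0.000674. Replicate 9 held the highest summed level of the slow list at 27 months and replicate 8 the lowest. With the 24 libraries of 24 and 27 months alone in the fit, 2 of the 10 were lower at any fold in place of 6. In whole muscle, fewer fibers of a kind and less RNA per fiber cannot be told apart.

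**Figure D3:**
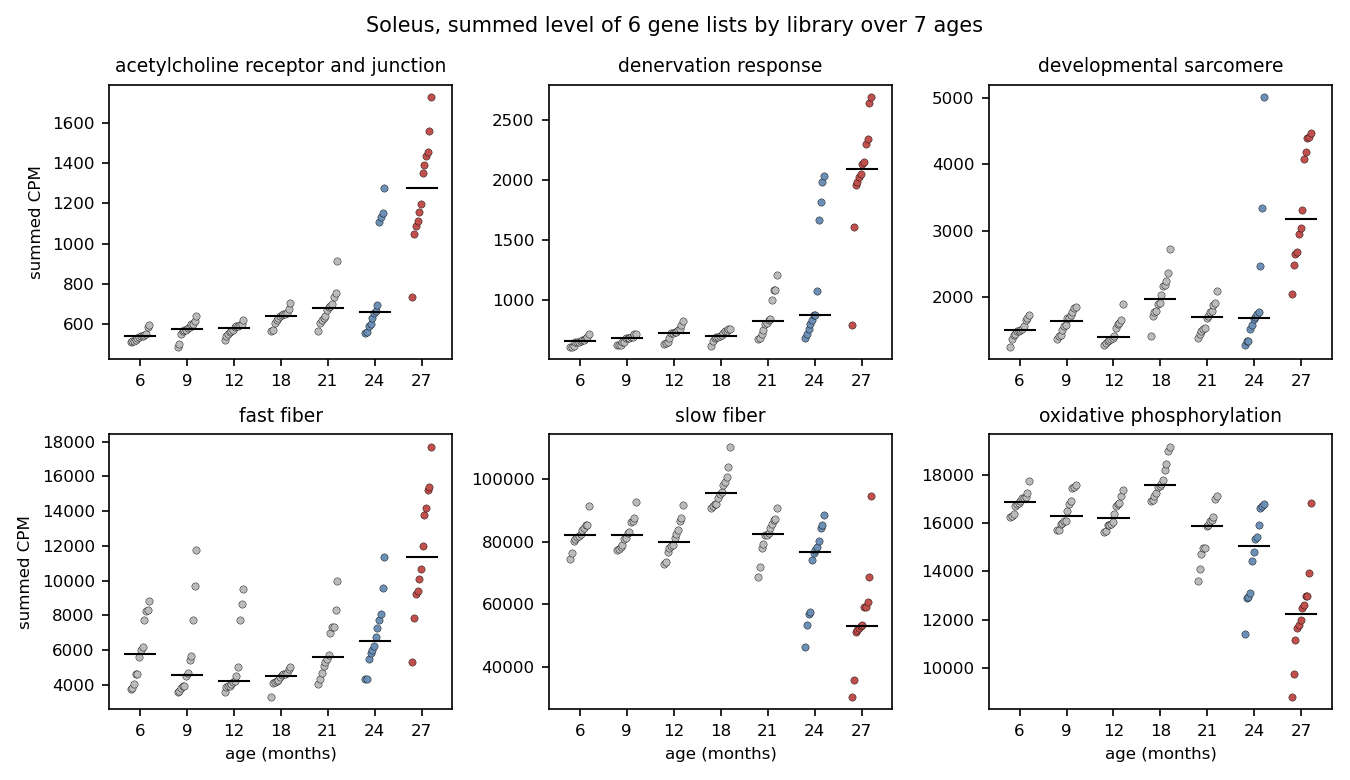
Summed level (CPM, vertical axes, not starting at 0) of 6 gene lists in each of 12 soleus libraries at 7 ages, with black lines at the medians and the last ages in blue (24 months) and red (27 months). The denervation response median is 873.4 at 24 months and 2091 at 27 months, with 4 libraries of 24 months already at 1669 or more.

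Libraries differed within an age in a shared way. The summed level of the denervation response list was 678.4 to 1073 CPM in 8 libraries of 24 months and 1669 to 2035 in the other 4 (replicates 5, 6, 7 and 11), with none between. At 27 months, 11 libraries lay between 1608 and 2692 and replicate 9 was at 788.2. From 6 to 18 months no library lay above 820.9, and at 21 months the highest reached 1211. The same replicates stood out in metabolism: the oxidative phosphorylation sum was 11390 to 13100 in those 4 libraries of 24 months, 14410 to 16800 in the other 8, and 16830 in replicate 9 at 27 months. Replicate 8 at 27 months had the highest denervation sum of its age and the lowest oxidative phosphorylation sum, 8822. These splits were noticed in the values and no samples were regrouped or tested by them.

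**Figure D4:**
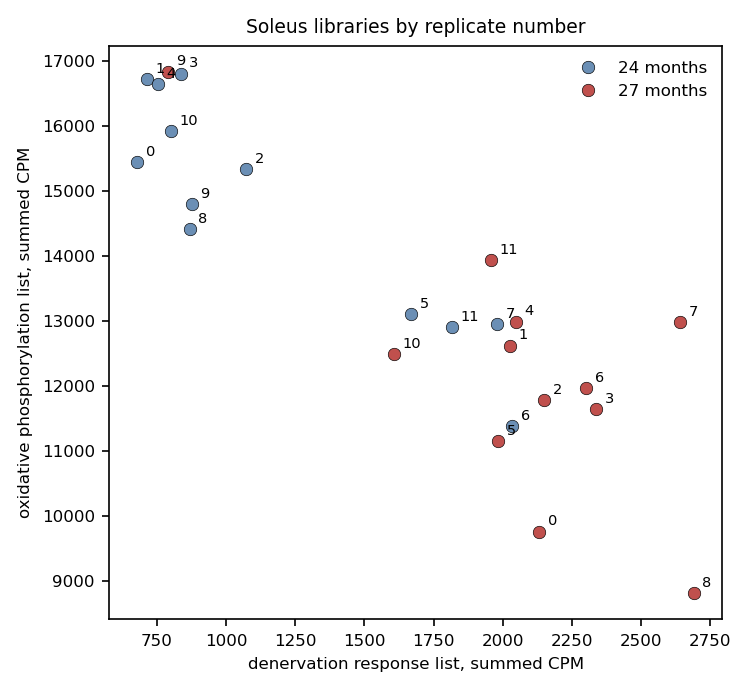
Summed CPM of the denervation response list (horizontal axis) and the oxidative phosphorylation list (vertical axis, not starting at 0) in the soleus libraries of 24 months (blue) and 27 months (red), numbered by replicate. Replicates 5, 6, 7 and 11 of 24 months lie near the 27-month libraries, and replicate 9 of 27 months lies with the other 8 libraries of 24 months.

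Mitochondrial genes moved little one by one and broadly downward. None of 57 tested genes of oxidative phosphorylation was called, all 57 changes were below 0, and 43 were lower at any fold, against 17.6% of all genes tested. The median change was -0.25. Among them were the complex III core subunit Uqcrc2 (-0.46 ± 0.06, adjusted p = 5.11e-08), the complex IV subunit Cox5a (-0.42 ± 0.08, adjusted p = 8.54e-06) and the complex I subunit Ndufs1 (-0.43 ± 0.07, adjusted p = 1.18e-06). Ndufs6 had the lowest value, -1.42 ± 0.66, adjusted p = 0.0852, with a wide error. With total-count scaling 36 were lower at any fold, and with the 24 libraries alone 30. The citric acid cycle list had a like pattern, with 0 of 16 called, 15 lower at any fold and a median of -0.27, for example Sucla2 (-0.53 ± 0.07, adjusted p = 3.87e-08).

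Perm1, a muscle regulator of mitochondrial genes, was the called member among 12 regulators. It ranged from 8.22 to 9.57 (median 9.26) at 24 months and from 6.07 to 9.24 (median 8.01) at 27 months, a change of -1.08 ± 0.15, adjusted p = 5.14e-08. In all, 7 libraries at 27 months lay below every library of 24 months. The nuclear receptor Esrrg changed by -0.54 ± 0.06, adjusted p = 1.12e-09, under 1.5-fold. The coactivator Ppargc1a changed by -0.28 ± 0.101, adjusted p = 0.0262, and its partner Esrra did not pass the test (-0.15 ± 0.099, adjusted p = 0.226).

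Fuel-use genes were mixed. Of 30 genes of fatty acid use, 2 were called higher and 2 lower, against 2.97% and 1.55% of all genes tested. At any fold 17 were lower, against 17.6% of all genes tested. With the 24 libraries of 24 and 27 months alone 11 were lower at any fold. The fatty acid carriers Cd36 (-0.63 ± 0.14, adjusted p = 0.000257) and Fabp3 (-0.600 ± 0.15, adjusted p = 0.00105) were lower, close to the 1.5-fold line, and Cd36 fell under it without replicate 3 or 4 of 24 months or 3 or 7 of 27 months. Angptl4, an inhibitor of lipoprotein lipase, ranged from -2.35 to 3.37 (median 1.92) at 24 months and from 1.63 to 5.06 (median 3.298) at 27 months, a change of 1.496 ± 0.44, adjusted p = 0.00516, with an adjusted p of 0.0502 in the fit of the 24 libraries alone. The mitochondrial carrier Ucp3 changed by 1.34 ± 0.401, adjusted p = 0.00606. Oxct1, which lets muscle burn ketone bodies, ranged from 9.31 to 10.03 (median 10.002) at 24 months and from 8.07 to 10.05 (median 8.85) at 27 months, a change of -0.798 ± 0.101, adjusted p = 5.73e-09. In Oxct1, 9 libraries of 27 months were below every one of 24 months. The ketone enzyme Bdh1 had a wide spread and did not pass the test (-0.54 ± 0.31, adjusted p = 0.171). In the limma-voom fit over all 325 libraries its adjusted p was 0.0252, with the change under 1.5-fold.

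Of 11 glycogen genes, 3 were called lower and 1 higher, against 1.55% and 2.97% of all genes tested. The lower ones were the glycogen-targeting phosphatase subunits Ppp1r3c (-0.76 ± 0.15, adjusted p = 5.49e-05) and Ppp1r3a (-0.63 ± 0.12, adjusted p = 1.38e-05) and Ugp2 (-0.74 ± 0.12, adjusted p = 2.18e-06), which makes the sugar donor. Stbd1, a glycogen-binding protein, was higher (0.65 ± 0.09, adjusted p = 1.31e-08), with 10 libraries of 27 months above all of 24 months. In glycolysis 1 of 17 was called, Pfkfb1, with a change of -0.69 ± 0.17, adjusted p = 0.00116. The lipid genes G0s2, an inhibitor of fat breakdown (-1.16 ± 0.29, adjusted p = 0.00114), and Mlxipl, a carbohydrate-response factor (-0.71 ± 0.12, adjusted p = 1.41e-06), were lower.

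Stress genes rose in part. Metallothioneins, which bind zinc and copper, were higher: Mt1a ranged from 1.66 to 6.52 (median 3.61) at 24 months and from 4.101 to 7.83 (median 6.18) at 27 months, a change of 2.35 ± 0.32, adjusted p = 3.62e-08, and Mt2A ranged from -0.31 to 2.19 (median 1.100) at 24 months and from 1.84 to 4.21 (median 2.53) at 27 months, a change of 1.797 ± 0.33, adjusted p = 1.36e-05. Mt3 changed by 1.17 ± 0.32, adjusted p = 0.00283 at low levels. These genes are near-identical copies in part, so their split is uncertain. Heme oxygenase Hmox1 ranged from 2.83 to 3.63 (median 3.304) at 24 months and from 3.62 to 5.59 (median 4.39) at 27 months, a change of 1.09 ± 0.14, adjusted p = 1.4e-08, and 11 of 12 libraries of 27 months exceeded all of 24 months. Of 23 genes of the integrated stress response 5 were called higher, against 2.97% of all genes tested. They were led by Chac1, a glutathione-degrading enzyme (1.05 ± 0.297, adjusted p = 0.00367), and included Mthfd2, Phgdh, Pck2 and Slc7a5. Atf4, the factor of that response, was lower at any fold (-0.26 ± 0.07, adjusted p = 0.00115). None of 18 heat shock genes was called, and at any fold 5 were lower and 1 higher, against 17.6% and 16.4% of all genes tested.

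Of 13 tested genes of cell cycle arrest 5 were called higher and none lower, against 2.97% and 1.55% of all genes tested. In all, 9 lay above 0, and the median change was 0.196. Cdkn1a, the p21 inhibitor, ranged from 5.89 to 9.37 (median 7.04) at 24 months and from 6.496 to 9.99 (median 9.15) at 27 months, a change of 1.53 ± 0.27, adjusted p = 5.94e-06. Cdkn1c (0.96 ± 0.15, adjusted p = 3.69e-07), the apoptosis-linked Phlda3 (1.04 ± 0.16, adjusted p = 3.46e-07), Gadd45a and Cdkn2b (0.601 ± 0.203, adjusted p = 0.0153) were the others. Cdkn1a and Gadd45a also stand in the denervation list. Follistatin (Fst), which binds and blocks myostatin, ranged from 2.74 to 4.92 (median 3.77) at 24 months and from 3.97 to 5.41 (median 5.04) at 27 months, a change of 1.14 ± 0.15, adjusted p = 2.34e-08. Igfbp5, a binding protein of insulin-like growth factors, changed by 0.72 ± 0.13, adjusted p = 6.77e-06. Myostatin itself (Mstn) did not pass the test (-0.86 ± 0.400, adjusted p = 0.0887).

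Trim63 and Fbxo32, muscle ubiquitin ligases of atrophy, did not pass the test. Trim63 ranged from 6.35 to 7.45 (median 6.64) at 24 months and from 6.05 to 7.54 (median 6.91) at 27 months, a change of 0.12 ± 0.099, adjusted p = 0.362. Fbxo32 ranged from 6.95 to 7.82 (median 7.43) at 24 months and from 6.76 to 7.95 (median 7.41) at 27 months, a change of -0.01 ± 0.08, adjusted p = 0.936, and its sign turned with the scaling. None of 15 atrophy and autophagy genes was called, with a median of 0.18. At any fold 8 were higher and 1 lower, against 16.4% and 17.6% of all genes tested. None of 32 proteasome genes was called, and at any fold 11 were higher and 3 lower.

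Markers of other cell types were compared with the background of 4.52% called, which amounts to less than 1 gene in a list of 20. None of 20 macrophage, 13 Schwann cell, 14 fibroblast, 11 smooth muscle, 5 neutrophil or 7 red cell genes was called, nor any of 32 interferon genes. At any fold the background was larger, with 16.4% of all genes tested higher and 17.6% lower. By that measure 7 of the 11 smooth muscle genes were lower and 1 higher, and 9 of 19 adipocyte genes were higher and 1 lower. Of 41 collagen and matrix genes 14 were higher at any fold and 1 was called, the matrix protein Postn (0.75 ± 0.27, adjusted p = 0.0251), which edgeR (adjusted p = 0.139) and DESeq2 (adjusted p = 0.167) did not call and which lost its call without replicate 0, 1 or 3 of 24 months or replicate 3 of 27 months (adjusted p = 0.0542 to 0.0751). Of 15 T cell genes 3 were called higher: Cd28 (1.68 ± 0.26, adjusted p = 4.59e-07), Prf1 (0.93 ± 0.24, adjusted p = 0.00142) and Lck (0.91 ± 0.301, adjusted p = 0.0132). The T cell receptor chains Cd3d, Cd3e and Cd3g were too low to test. The T cell list summed to 28.87 to 59.25 CPM at 24 months and 35.48 to 90.84 at 27 months. Of 17 endothelial marker genes 1 was called higher, the peptide Apln (0.72 ± 0.202, adjusted p = 0.00338), which was the only member above 0. At any fold 7 of these markers were lower. Apln lost its call with the 24 libraries alone (0.709, adjusted p = 0.0969). The satellite cell factor Myf5 was higher (0.77 ± 0.15, adjusted p = 2.71e-05), the one called of 14 markers. The 16 liver genes tested were all above 0 with a median of 1.66 and none called, and Alb ranged from -2.92 to 0.26 (median -0.601) at 24 months and from -0.77 to 10.96 (median 0.83) at 27 months. Its change was 2.92 ± 4.09, adjusted p = 0.617 in limma-voom, while edgeR and DESeq2 called it (8.375 and 8.386 on the log2 scale), with replicates 4 and 7 of 27 months holding its high values. The summed liver list had a median of 214.2 CPM at 6 months, 48.89 at 9, 74.43 at 12 and 345.5 at 18. Its median was 143.9 CPM at 21 months, 60.2 at 24 and 71.76 at 27.

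Other named rises were of mixed kinds. The lipid phosphodiesterase relative Smpdl3b (1.398 ± 0.17, adjusted p = 2.24e-09) and the mitochondrial reductase Marc1 (1.22 ± 0.15, adjusted p = 2.39e-09) had, with Lrp4, the lowest p-values among rises. Complement C4a changed by 0.74 ± 0.14, adjusted p = 1.3e-05. Klk1c7 changed by 2.41 ± 0.404, adjusted p = 1.96e-06 and belongs to the kallikrein family of close copies, so its reads may be shared. Myh9, a nonmuscle myosin, changed by 2.26 ± 0.86, adjusted p = 0.0331, but it was near 0 counts in a few libraries (range from -5.81 to 4.42 (median 2.46) at 24 months and from 0.87 to 6.29 (median 3.64) at 27 months) and lost its call in DESeq2 (adjusted p = 0.073) and without replicate 3 or 11 of 24 months or replicate 10 of 27 months (adjusted p = 0.054 to 0.0808). Il6 was called from very low levels (median -2.42 against -1.53) in limma-voom alone (edgeR adjusted p = 0.187). Rrm2, a nucleotide enzyme of dividing cells, was the one called of 26 cell cycle genes (1.34 ± 0.38, adjusted p = 0.00364).

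The falls were led by Rn18s (-5.01 ± 1.46, adjusted p = 0.00463), which lost its call without replicates 0, 8 and 9 of 27 months (-1.91, adjusted p = 0.161) and in DESeq2 (adjusted p = 0.062). Aqp4, the water channel of the fiber membrane, ranged from 2.58 to 6.64 (median 5.51) at 24 months and from 2.05 to 6.59 (median 3.57) at 27 months, a change of -1.72 ± 0.33, adjusted p = 2.84e-05. The magnesium transporter Slc41a3 ranged from 4.56 to 6.15 (median 5.78) at 24 months and from 2.08 to 5.402 (median 4.07) at 27 months, a change of -1.43 ± 0.19, adjusted p = 1.31e-08. In Slc41a3, 9 libraries of 27 months lay below all of 24 months, against 2 in Aqp4. The pacemaker channel Hcn4 changed by -1.21 ± 0.28, adjusted p = 0.000405, the potassium channel partner Lrrc52 by -1.56 ± 0.35, adjusted p = 0.000294, and the unconventional myosin Myo3b by -1.49 ± 0.28, adjusted p = 2.18e-05.

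Lgi2 (-1.45 ± 0.34), the receptor phosphatase Ptprt (-1.34 ± 0.28), Calhm1 (-1.26 ± 0.47) and Rp1 (-1.36 ± 0.46) completed the 10 largest falls. Rp1 was not called by edgeR (-0.501, adjusted p = 0.295). Without replicate 8 of 27 months, Rp1 (-0.802, adjusted p = 0.101) and Calhm1 (-1.005, adjusted p = 0.0864) lost their calls. Calhm1 also lost it without replicate 8 of 24 months or replicate 0 or 3 of 27 months (adjusted p = 0.0573 to 0.0635).

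The falls with the lowest p-values were smaller in size. The splicing regulator Mbnl2 ranged from 9.44 to 10.03 (median 9.85) at 24 months and from 8.33 to 9.59 (median 9.09) at 27 months, a change of -0.76 ± 0.08, adjusted p = 2.56e-10. The diacylglycerol kinase Dgkb ranged from 3.79 to 4.01 (median 3.86) at 24 months and from 2.46 to 3.48 (median 3.25) at 27 months, a change of -0.74 ± 0.08, adjusted p = 6.23e-10. The chemokine Cxcl12 ranged from 7.83 to 8.61 (median 8.34) at 24 months and from 7.34 to 8.18 (median 7.63) at 27 months, a change of -0.59 ± 0.07, adjusted p = 1.12e-09. In Dgkb the ages did not overlap, and in Mbnl2 and Cxcl12 10 of 12 libraries of 27 months lay below every one of 24 months. Calcium genes moved both ways, with triadin (Trdn), an anchor of the release channel, lower (-0.76 ± 0.13, adjusted p = 3.87e-06) and the channel subunit Cacnb1 higher (0.64 ± 0.09, adjusted p = 1.53e-08). Cacna1e (-0.87 ± 0.34, adjusted p = 0.0396) lost its call without replicate 8 of 27 months (-0.58, adjusted p = 0.16) and, with adjusted p from 0.0506 to 0.0742, without any one of replicates 0, 1, 2, 4, 8, 9 and 10 of 24 months or 0, 4 and 6 of 27 months. Cxcl12 fell just under 1.5-fold without any one of 10 libraries, with adjusted p of 7.48e-09 or less.

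Clock genes cycle over the day and immediate early genes answer brief stimuli, and tissues were taken within one morning-to-midday window on one day per age. Of 15 clock genes 2 were called, both lower, against 1.55% of all genes tested. Arntl ranged from 3.41 to 4.97 (median 4.33) at 24 months and from 2.45 to 4.16 (median 3.31) at 27 months, a change of -1.005 ± 0.23, adjusted p = 0.000436. Its relative Npas2 changed by -1.08 ± 0.17, adjusted p = 6.55e-07. Dbp, an output of the clock, did not pass the test (0.24 ± 0.203, adjusted p = 0.387). Of 20 immediate early genes, Nr4a2 (-1.103 ± 0.39, adjusted p = 0.0195), Fos (-0.93 ± 0.33, adjusted p = 0.0207) and Nr4a1 (-0.68 ± 0.28, adjusted p = 0.0472) were called lower. Nr4a2 lost its call without replicate 1 of 24 months or replicate 8 of 27 months (adjusted p = 0.0511 and 0.0543). Tnf was lower from low levels (-0.91 ± 0.27, adjusted p = 0.00528, and 0.0523 with the 24 libraries alone), and its symbol stood on more than 1 line of the files. The adipocyte gene Thrsp was higher (0.69 ± 0.195, adjusted p = 0.00363).

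The level at earlier ages placed the step. Mean Chrng (± SD, n = 12 libraries per age, log2 CPM) was 1.45 ± 0.62 at 6 months, 2.16 ± 0.35 at 12, 2.23 ± 0.26 at 18, 3.06 ± 0.58 at 21, 3.57 ± 1.18 at 24 and 5.17 ± 0.74 at 27 months. Chrna1 was 6.05 ± 0.21 at 6 months, 6.61 ± 0.602 at 21, 7.13 ± 1.22 at 24 and 8.599 ± 0.85 at 27. Both genes had a larger SD at 24 months than at the other ages given. Myh4 was 3.71 ± 1.12 at 6, 3.899 ± 1.15 at 12, 4.18 ± 1.495 at 21, 4.12 ± 0.85 at 24 and 6.798 ± 1.28 at 27 months. Mean Myh2 was higher at 6 months (8.02 ± 3.13) and 9 months (7.85 ± 2.75) than at 24 (7.07 ± 1.16), and was 9.22 ± 1.64 at 27. The highest fast-fiber sum at 9 months was 11780 CPM, against a median of 11340 at 27 months. Bdh1 was 5.05 ± 0.21 at 6 months, 3.99 ± 0.64 at 21, 2.81 ± 0.900 at 24 and 2.299 ± 1.18 at 27. Aqp4 ran 4.500 ± 0.36, 5.21 ± 0.71, 5.31 ± 1.197 and 3.67 ± 1.27 at the same 4 ages, so its mean was above the 6-month level at 21 and 24 months and below it at 27.

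Calls of the last step were also set beside those of 21 against 6 months. Of the 361 genes higher at 27 months, 39 (10.8%) were called higher and 1 lower at 21 against 6 months, and those 39 were 22.7% of the genes called higher there. Of the 189 lower genes, 8 (4.23%) were called lower and 9 (4.76%) higher, and the 8 were 5.48% of the genes called lower there. The background at 21 against 6 months was 1.41% of tested genes for higher and 1.2% for lower. No test of these shares was made.

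The other 3 muscles went through the same step, with 12 libraries at each age for the diaphragm and the tibialis anterior, and 9 at 24 and 11 at 27 months for the gastrocnemius. In one limma-voom fit over all 325 libraries, the change in the soleus differed from that in the diaphragm for 459 of 12784 genes (3.59%), from the gastrocnemius for 246 (1.92%) and from the tibialis anterior for 265 (2.07%). With libraries of 24 and 27 months alone the counts were 303, 94 and 146. For the step itself, the fit over all 325 libraries called 725 genes in the soleus, 498 higher and 227 lower, against 550 in the soleus fit. It called 496 in the diaphragm, 84 in the gastrocnemius and 706 in the tibialis anterior.

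In fold change, fast-fiber genes set the soleus apart from each of the other muscles, whose levels of these genes were not compared. Of 12 tested, 8 had a higher change than in the diaphragm, 8 than in the gastrocnemius and 10 than in the tibialis anterior, and none a lower one. Over all genes the shares with a different change were 3.59%, 1.92% and 2.07% in that order. The list median was 2.13 in the soleus, 0.11 in the diaphragm, -0.06 in the gastrocnemius and -0.23 in the tibialis anterior. Myh4 changed by 2.69 ± 0.34 in the soleus, 0.13 ± 0.36 in the diaphragm, -0.42 ± 0.45 in the gastrocnemius and -0.88 ± 0.42 in the tibialis anterior. The soleus change exceeded the last by 3.57 ± 0.54, adjusted p = 1.93e-07, the gastrocnemius by 3.11 ± 0.56, adjusted p = 4.33e-05 and the diaphragm by 2.56 ± 0.498, adjusted p = 3.27e-05. For Myh1 the difference was 2.94 ± 0.57, adjusted p = 3.59e-05 from the diaphragm, 2.49 ± 0.62, adjusted p = 0.00408 from the gastrocnemius and 2.72 ± 0.58, adjusted p = 0.00046 from the tibialis anterior. For Myh2 no difference passed the test (adjusted p = 0.0562, 0.125 and 0.22 from the same muscles in that order).

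Several denervation genes had a larger change in the soleus than in the gastrocnemius in the fit over all ages. The gastrocnemius had 84 called genes of any kind in this step, against 725 in the soleus. Levels of the denervation genes at 24 months were not compared between muscles. Of 14 list genes 7 had a higher change than in the gastrocnemius, 3 than in the diaphragm and 1 than in the tibialis anterior. Over all genes the shares with a different change were 1.92%, 3.59% and 2.07% in that order. Chrng changed by 1.64 ± 0.23 in the soleus, 1.66 ± 0.39 in the diaphragm, 1.22 ± 0.22 in the tibialis anterior and 0.12 ± 0.24 in the gastrocnemius. Its difference from the gastrocnemius was 1.52 ± 0.33, adjusted p = 0.000907, and those from the diaphragm (-0.02 ± 0.46, adjusted p = 0.98) and the tibialis anterior (0.42 ± 0.32, adjusted p = 0.477) did not pass the test. The same held for Chrna1 (1.44 ± 0.38, adjusted p = 0.0076 against the gastrocnemius), Runx1 (1.59 ± 0.33, adjusted p = 0.000406), Musk (0.93 ± 0.26, adjusted p = 0.0116), Hdac4 (0.93 ± 0.23, adjusted p = 0.00356), Ncam1 (0.83 ± 0.23, adjusted p = 0.0123), Cdkn1a (1.400 ± 0.39, adjusted p = 0.0112) and Mt1a (1.97 ± 0.41, adjusted p = 0.000401). With libraries of 24 and 27 months alone, the differences from the gastrocnemius were of like size but lost their calls for Chrng (1.485, adjusted p = 0.102), Chrna1 (adjusted p = 0.126), Runx1 (0.0552), Musk (0.169), Hdac4 (0.115), Ncam1 (0.143) and Cdkn1a (0.143), while Mt1a was still called, close to the threshold. In edgeR, Chrng (1.223, adjusted p = 0.0657) and Cdkn1a (1.083, adjusted p = 0.0623) were not called.

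**Figure D5:**
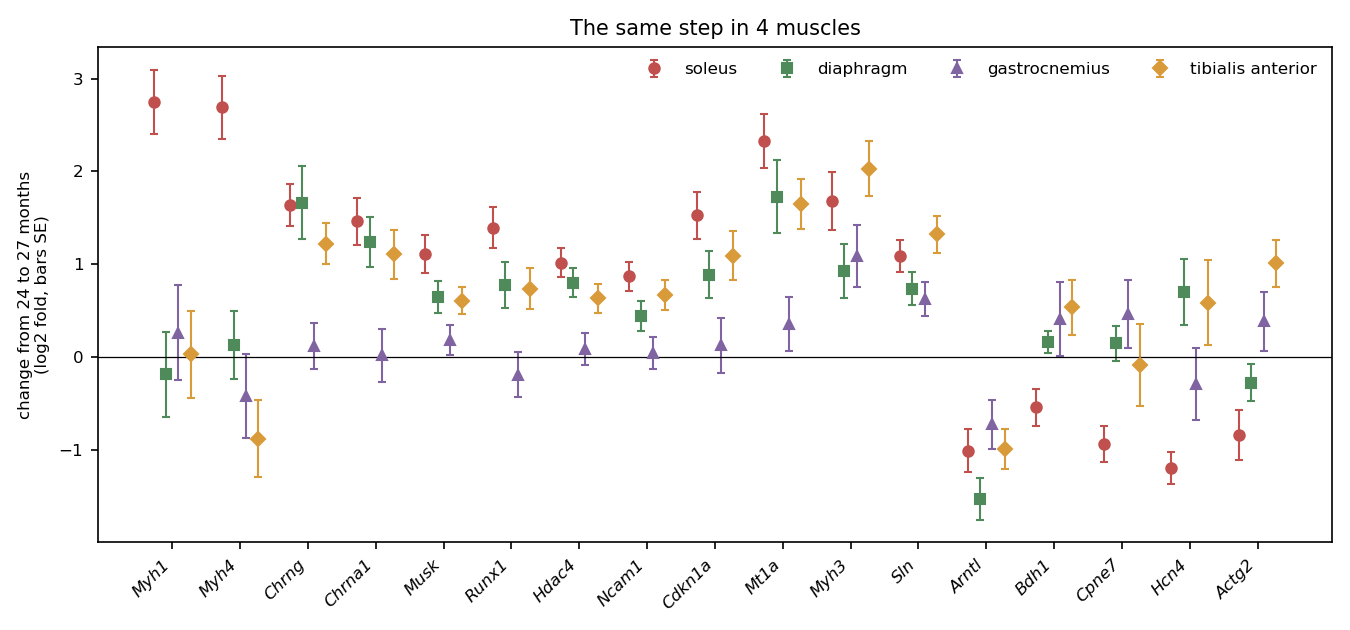
Change from 24 to 27 months (log2 fold, vertical axis, bars SE of the fit) of 17 genes in the soleus, diaphragm, gastrocnemius and tibialis anterior. Myh1 and Myh4 stand near 2.7 in the soleus and between -0.88 and 0.26 in the other muscles, and the receptor genes Chrng and Chrna1 stand near 0 in the gastrocnemius.

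Some genes also had a lower change in the soleus than elsewhere. Hcn4 changed by -1.19 ± 0.17 in the soleus and 0.698 ± 0.35 in the diaphragm, a difference of -1.89 ± 0.39, adjusted p = 0.000107, and it differed from the tibialis anterior by -1.78 ± 0.49, adjusted p = 0.00956. Cpne7, a calcium-dependent membrane-binding protein, differed from the gastrocnemius by -1.399 ± 0.41, adjusted p = 0.0185 and from the diaphragm by -1.08 ± 0.27, adjusted p = 0.00147. The smooth muscle actin Actg2 changed by -0.84 ± 0.27 in the soleus and 0.39 ± 0.32 in the gastrocnemius. In the tibialis anterior it was called higher (1.01 ± 0.25), so that difference holds a rise there as well as a fall in the soleus. Its soleus change differed from the tibialis anterior by -1.85 ± 0.37, adjusted p = 0.00014 and from the gastrocnemius by -1.22 ± 0.42, adjusted p = 0.0474. Bdh1 differed from the diaphragm by -0.700 ± 0.23, adjusted p = 0.0237 and from the tibialis anterior by -1.08 ± 0.35, adjusted p = 0.0378. With libraries of 24 and 27 months alone, Hcn4 against the tibialis anterior (adjusted p = 0.0999), Cpne7 (0.126) and Actg2 (0.106) against the gastrocnemius, and Bdh1 against the diaphragm (0.147) and the tibialis anterior (0.164) lost their calls. Actg2 against the gastrocnemius was also lost with total-count scaling (adjusted p = 0.0534) and quality weights (-1.009, adjusted p = 0.186). Bdh1 was lost in edgeR against the diaphragm (adjusted p = 0.191) and the tibialis anterior (0.0987), and against the diaphragm also with total counts (0.0799) and with a replicate block (0.0852). For Myh3, Sln and Arntl no difference from any of these muscles passed the test. Arntl, for one, changed by -1.01 ± 0.23 in the soleus and -1.53 ± 0.22 in the diaphragm. The oxidative phosphorylation median was -0.25 in the soleus, 0.15 in the diaphragm, close to 0 in the gastrocnemius and -0.22 in the tibialis anterior. Of its 57 genes 3 differed from the diaphragm, where 3.59% of all genes did, and none from the other muscles.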

How the data were processed

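Bulk RNA was sequenced from soleus, diaphragm, gastrocnemius and tibialis anterior of rats aged 6 to 27 months. The authors extracted total RNA, removed ribosomal RNA, made strand-specific paired-end libraries and deposited raw counts per gene, aligned to a rat B6.0 reference with an in-house RefSeq gene model; the pipeline version is not given in the sources used here. Lines of one symbol were summed here (494 of 17315 symbols stood on more than 1 line). Genes were kept with filterByExpr of edgeR 4.0.16 (minimum count 10, minimum total 15) and scaled by TMM, and levels are log2 CPM with 0.5 counts added. Changes were fitted with limma 3.58.1 (voom) in R 4.3.3, over all 84 soleus libraries or, for differences between muscles, all 325, with Benjamini-Hochberg adjusted p over all genes tested and a call at adjusted p below 0.05 and more than 1.5-fold. The ± values of changes are standard errors. P-values measure the spread between libraries, with a single estimate per gene pooled over all libraries of the fit. For genes that spread more at 24 and 27 months, SE and p can come out too small for this step. The SD of Chrng was 1.18 at 24 and 0.74 at 27 months, against 0.62 at 6 and 0.26 at 18. That of Oxct1 was 0.30 at 24 and 0.52 at 27 months, against 0.11 at 6. The study states that each group held as many animals as samples, so libraries of one muscle and age were of different rats. The labels do not tie libraries of different muscles to one rat.

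The members, gene lists and tests were chosen with earlier results of these data known. Genes were named by rule: the 10 largest rises and falls with a mean log2 CPM above 0, the 3 rises and 3 falls with the lowest p, a panel of 25, the called member of each described list with the largest rise and fall, and the largest differences between muscles. Further list members were named after their values were seen. One gene that the rule names is not reported here. The fits were tested on simulated data. No 2 soleus libraries of 24 or 27 months agreed within sampling noise (lowest chi-square 11 per degree of freedom). Promoters came from RefSeq on GRCr8, a later build than that of the files, matched by symbol. Alternatives were edgeR, DESeq2 1.42.0, other scalings, filters and weights, a replicate block, and leaving out libraries.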

Additional observations from a re-analysis of the deposited data

Results flagged for a closer look

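The change from 24 to 27 months in the soleus differed, by the interaction term of the fit over all libraries (limma-voom, adjusted p below 0.05 and more than 1.5-fold), from that in the diaphragm for 459 genes, the gastrocnemius for 246 and the tibialis anterior for 265.

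Among the named genes, the soleus change minus the diaphragm change was 2.94 for Myh1, 2.56 for Myh4, -1.89 for Hcn4, -1.08 for Cpne7 and -0.70 for Bdh1, on the log2 scale. Against the gastrocnemius it was 3.11 for Myh4, 2.49 for Myh1, 1.97 for Mt1a, 1.59 for Runx1, 1.52 for Chrng, 1.44 for Chrna1, 1.40 for Cdkn1a, 0.93 for both Hdac4 and Musk, 0.83 for Ncam1, -1.22 for Actg2 and -1.40 for Cpne7. Against the tibialis anterior it was 3.57 for Myh4, 2.72 for Myh1, -1.08 for Bdh1, -1.78 for Hcn4 and -1.85 for Actg2. With libraries of 24 and 27 months alone, the differences from the gastrocnemius for Runx1, Chrng, Chrna1, Cdkn1a, Hdac4, Musk, Ncam1, Actg2 and Cpne7 had adjusted p from 0.0552 to 0.169, and those for Bdh1 from the diaphragm and the tibialis anterior and for Hcn4 from the tibialis anterior from 0.0999 to 0.164.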

How the results depend on the processing

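The 27 against 24 months counts, 361 higher and 189 lower, became 116 and 81 with Bonferroni adjustment, 169 and 40 with a 2-fold threshold, and 545 and 110 with total-count scaling. Leaving out each library in turn gave 329 to 420 higher and 148 to 234 lower, and edgeR, DESeq2, RLE factors, either filter, quality weights, single-line symbols and the 24 libraries alone stayed within 1.5 times. The 65 calls of 24 against 21 months became 1 (Bonferroni), 14 (2-fold), 225 (edgeR), 236 (DESeq2), 103 (no filter), 13 (quality weights) and 100 (replicate block); the cause was not tested. The 318 calls of 21 against 6 months became 95 (Bonferroni) and 142 (2-fold). The differences from diaphragm, gastrocnemius and tibialis anterior became 109, 41 and 68 with Bonferroni, 176, 103 and 97 with 2-fold, and 303, 94 and 146 with libraries of 24 and 27 months alone, where fewer samples enter; quality weights gave 795 and 379 for the first 2. The 2 tightened thresholds are stricter by construction.

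Rats were killed at tissue collection, so no rat gave soleus libraries of both ages and replicate numbers could not pair them by animal. Same-numbered libraries of 24 and 27 months correlated in their deviations from -0.216 to 0.145, with 2 of 12 pairs over 0.1. In that comparison 1 library was best matched by its own number. Whether replicate numbers pair the muscles of one rat within an age was not checked. The main fit over all muscles treated the libraries as independent. With a replicate block the last step gave 342 higher and 199 lower, 21 against 6 months 360, and the muscle differences (block of age and number) 512, 283 and 327.

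Of the named genes only Fbxo32 turned its sign, without a call under any setting. Its change of -0.01 became 0.013 with edgeR, 0.007 with DESeq2, 0.083 with total counts, -0.057 to 0.046 when 1 library at a time was left out, 0.010 without replicates 4 and 7 of 27 months and 0.064 without replicates 0, 8 and 9. Leaving out replicates 8 and 9, 4 and 7, or 0, 8 and 9 of 27 months was chosen after seeing the data and gave 396 and 205, 350 and 151, and 388 and 189 genes higher and lower. Under these 3 settings 10 or 11 of 14 denervation genes, 8 to 10 of 12 fast-fiber genes and 39 to 44 of 57 oxidative phosphorylation genes moved past the test in the direction given in the report (called higher for the first pair of lists, lower at any fold for the last). With Bonferroni adjustment these lists gave 9 denervation, 3 fast-fiber and 15 oxidative phosphorylation genes, developmental sarcomere genes went from 5 to 3, and called genes of the integrated stress response from 5 to 0. With total counts or quality weights that response gave 8. Depth was alike at both ages and limits genes of low counts, such as Il6 and Krt18.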

Other observations

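Of 39 genes of the cytosolic ribosome none was called, 27 were higher at any fold against 16.4% of all genes tested, and the median change was 0.14. Of 32 genes of the mitochondrial ribosome none was called, 10 were lower at any fold, against 17.6% of all genes tested, and 1 higher, and the median was -0.12. The difference between the lists was not tested. With libraries of 24 and 27 months alone, 18 cytosolic ribosome genes were higher at any fold. Of 12 genes of the dystrophin complex none was called, and their median change was 0.02.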
